A study of Caenorhabditis elegans with 2 samples.

Results

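The oxidative phosphorylation genes examined here were the 43 nuclear genes of Caenorhabditis elegans whose symbol begins with nuo, sdha, sdhb, sdhd, cyc, isp, ucr, cox, atp, asb or asg and a number. They were chosen by symbol from 46890 nuclear genes, of which 19973 are protein coding, so the rule uses no measured value. By complex they comprised 6 genes of complex I, 4 of complex II, 9 of complex III with cytochrome c, 15 of complex IV and 9 of complex V. The symbols leave out many other genes of the same machinery, among them most complex I genes, and these are described separately at the end. Chromatin immunoprecipitation followed by sequencing (ChIP-seq) had been run against eGFP-tagged NHR-77, one of the many nuclear hormone receptors of this worm, in whole L3 larvae. The labels name nhr-77 as the antibody and the description eGFP-nhr-77 as the target, and which of the tag and the receptor the antibody recognises was not settled. The samples formed 1 group of 2 biological replicates. The strain was OP353, which per the labels carries the unc-119 mutation tm4063 on chromosome III and the insertion wgIs353 targeting nhr-77, and males and females were pooled. Both replicates share this background, and the labels do not say from which promoter or in which tissues the tagged protein was made. Whole animals were used, so a peak cannot be placed in a tissue. With 1 group and no untagged sample in the comparison, no test between conditions was possible, and shares and signal values are set beside those of all protein coding genes as a description.

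Oxidative phosphorylation takes place in the inner mitochondrial membrane. Complex I takes electrons from NADH and complex II from succinate, both pass them through a quinone to complex III, and cytochrome c carries them on to complex IV, cytochrome c oxidase, which reduces oxygen. Protons pumped on the way drive complex V, the ATP synthase, in which the F1 part makes ATP and a peripheral stalk holds it in place. Complexes I, III, IV and V join subunits made in the mitochondrion with nuclear-encoded ones, and the nuclear genes at hand encode the nuclear-encoded ones together with factors that assemble complex IV.

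The sequences around summits of 4 genes from complexes II, III and IV are shown first, to let the signal values given further on be read with the DNA they come from. The stretches reach 75 bases on either side of the strongest pooled summit, and were read on the strand of the gene from the RefSeq genome sequence of WBcel235, which is ce11. The 2 cox genes stand for the complex IV subunits with high signal, cyc-2.1 for a summit inside the gene itself, and sdhd-1 for the strongest complex II gene. They lie at chrIII:12905138-12905288 for cox-5A and chrIII:2785969-2786119 for cox-6B, both on the plus strand. Those of the minus strand genes cyc-2.1 and sdhd-1 lie at chrIV:4748713-4748863 and chrII:11050053-11050203. Capitals mark every match, on either strand, to 8 short motifs that are listed with their shares further on, here to GAGAG, to GATAA alone or within TGATAA, and to TTTTAAA.
cox-5A: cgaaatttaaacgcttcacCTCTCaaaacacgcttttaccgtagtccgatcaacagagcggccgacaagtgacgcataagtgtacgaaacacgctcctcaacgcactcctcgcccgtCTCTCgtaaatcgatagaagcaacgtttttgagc
cox-6B: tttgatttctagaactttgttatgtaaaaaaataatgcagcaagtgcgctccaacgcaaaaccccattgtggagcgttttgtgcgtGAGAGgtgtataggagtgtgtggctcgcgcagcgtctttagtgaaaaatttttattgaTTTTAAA
cyc-2.1: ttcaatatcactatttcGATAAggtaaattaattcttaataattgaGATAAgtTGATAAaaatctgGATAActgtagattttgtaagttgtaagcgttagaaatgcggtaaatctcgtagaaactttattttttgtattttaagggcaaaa
sdhd-1: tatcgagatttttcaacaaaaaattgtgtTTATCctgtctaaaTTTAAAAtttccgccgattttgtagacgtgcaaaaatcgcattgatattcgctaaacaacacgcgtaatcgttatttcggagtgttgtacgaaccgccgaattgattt
The cox-5A stretch held GAGAG at 2 places, both on the minus strand. The cox-6B stretch held 1 GAGAG and 1 TTTTAAA, and the sdhd-1 stretch 1 GATAA and 1 TTTTAAA. The intronic cyc-2.1 stretch held GATAA at 4 places, 1 of them within TGATAA, and had the lowest GC content of the 7 stretches printed, 25.8%.

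A set of 3 genes of complex V is shown for a run of 13 bases that their summits share. The genes are asb-2 and asb-1, paralogs for subunit b of the peripheral stalk, and atp-2, which encodes the beta subunit of F1. The stretches lie at chrX:4469432-4469582 for asb-2 and chrIII:5228061-5228211 for atp-2, both on the plus strand, and at chrIII:4595962-4596058 on the minus strand for asb-1, where the stretch was shortened to 97 bases to leave out an exon of sel-2. Capitals here mark only the shared run, ggtctcgcaacga, which reads in reverse complement in atp-2.
asb-2: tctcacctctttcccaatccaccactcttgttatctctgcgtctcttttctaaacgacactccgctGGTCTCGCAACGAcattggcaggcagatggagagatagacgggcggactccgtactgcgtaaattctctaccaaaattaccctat
asb-1: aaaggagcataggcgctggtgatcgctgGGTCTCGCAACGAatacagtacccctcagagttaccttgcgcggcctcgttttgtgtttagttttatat
atp-2: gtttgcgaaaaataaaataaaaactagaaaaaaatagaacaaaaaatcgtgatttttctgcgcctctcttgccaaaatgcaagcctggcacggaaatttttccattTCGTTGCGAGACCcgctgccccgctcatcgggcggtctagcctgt
The run was noticed after the values were seen, between asb-2 and asb-1, and then searched for on both strands within 100 bp of every summit. It was found at 3 of the 36 genes with a pooled summit (8.33%), and these 3 were asb-1, asb-2 and atp-2. The hits at asb-1 and asb-2 were fixed in advance, because these genes defined the run. The search thus added atp-2 alone, and no enrichment can be read from the 8.33%. The run was found at 6 of the 590 peaks of the IDR list, which is defined below (1.02%). It was found at 22 of 11296 pooled summits in windows of protein coding genes (0.195%). The longest run shared by asb-1 and atp-2 was 15 bases. In the 18 pairs that include 1 of the other 4 printed stretches, the longest shared run was 6 to 10 bases. The atp-2 summit was nearer to the 5′ ends of C34E10.10 and C34E10.12 than to that of atp-2. No factor is assigned to the run here.

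Most oxidative phosphorylation genes had a place of enriched ChIP signal near their start, and a smaller part had a strong one. The deposited lists give for each peak a signal value, the authors' enrichment of ChIP over control, and a summit, the base where it is highest. A gene was given every summit from 1000 bp upstream to 500 bp downstream of any of its annotated 5′ ends, and its strongest one is reported. In the list called on both replicates pooled, which has 30000 entries and includes weak background, 36 of the 43 genes (83.7%) had a summit, where 45.5% of all protein coding genes had one. In the list that the authors cut at an irreproducible discovery rate (IDR), a measure of how alike peaks rank in replicates, which holds the 590 strongest pooled peaks, 8 of the 43 (18.6%) had a summit, where 2.50% of all protein coding genes had one. Among genes with any pooled summit the shares were 8 of 36 (22.2%) and 5.50%. The 8 genes were cox-5A, cox-5B, cox-6B, cox-6A and cox-4 of complex IV, asb-2 and atp-3 of complex V, and the cytochrome c gene cyc-2.1, and no 2 of them shared a peak, although other genes' windows held some of these peaks. When every peak was assigned to just its closest gene by 5′ end, noncoding genes included, 4 of the 8 remained: cox-5A, cox-5B, asb-2 and cyc-2.1. That is 9.30% of the 43 genes, where the same assignment left 1.39% of all protein coding genes.

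The strongest pooled signals of the 36 genes ranged from 5.83 to 85.5 with a median of 15.2, and the median over all protein coding genes with a summit was 9.54. Of the 36, 26 lay above that median gene and 13 in the top decile of genes. By complex the median was 10.98 for complex I, 19.5 for complex II, 12.1 for complex III with cytochrome c, 16.3 for complex IV and 16.8 for complex V. The ranges of all 5 complexes overlapped. The read depth of the libraries was not analysed here, so no interval is given for single signal values.

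**Figure D1:**
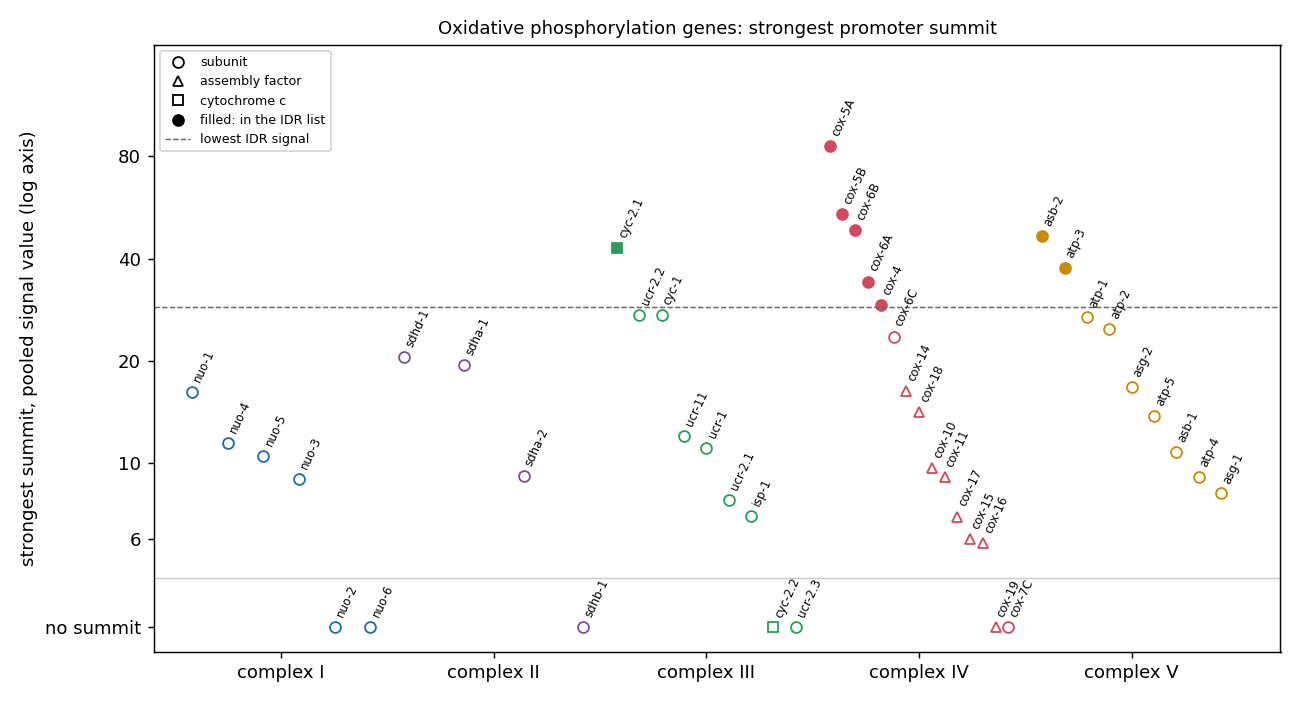
Each point is 1 of the 43 genes, placed by complex on the horizontal axis and by the signal value of its strongest pooled summit on the vertical log axis, with genes without a pooled summit on the bottom row. Filled points are in the IDR list, whose lowest signal of 28.9 is the dashed line; 5 of the 8 filled points are complex IV subunits, and the 7 complex IV assembly factors with a summit lie between 5.83 and 16.3.

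Complex IV held the strongest summits, and they were at its structural subunits. Of 7 subunit genes, 5 were in the IDR list and the median of the 6 with a pooled summit was 41.4. Of 8 assembly factor genes none was in the IDR list, and the median of the 7 with a pooled summit was 9.14. Over all protein coding genes 2.50% were in the IDR list and the median was 9.54. With 8 genes both values are near these, so neither is a result about the assembly factors. The weakest subunit with a summit, cox-6C at 23.6, lay above the strongest assembly factor, cox-14 at 16.3, so the values did not overlap apart from the genes without a summit, cox-7C and cox-19. This holds for the cox symbols in this window only. The copper chaperone gene sco-1, which also serves complex IV assembly, had 33.3 and was in the IDR list, above cox-6C and cox-4. With a window of 500 bp on either side cox-6A had 7.43, and with the window of 2000 bp upstream the assembly factor gene cox-10 had 24.1, so the values then overlapped. With each peak assigned to the nearest gene of any biotype, cox-6A had 7.43 and cox-6C 11.25, and 2 complex IV genes in place of 5 remained in the IDR list.

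The strongest of all was cox-5A, which encodes a nuclear-encoded subunit of cytochrome c oxidase. Its pooled signal was 85.5 (rank 43 of 30000), and the replicate lists gave 37.4 in replicate 1 and 43.5 in replicate 2, rank 65 in both. The peak spans chrIII:12905141-12905290 on ce11, is intergenic, has its summit 278 bp upstream of the cox-5A 5′ end and lies in no other gene's window. Each list has its own scale of signal, so ranks and not values are compared between lists.

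The subunit gene cox-5B had a pooled signal of 54.0 (rank 127), with 29.8 in replicate 1 (rank 122) and 26.5 in replicate 2 (rank 166). Its summit lay 5 bp upstream of the 5′ end, nearer than that of any other of the 36 genes, and the windows of the noncoding RNA genes F26E4.16 and F26E4.14 also held it. The subunit gene cox-6B had 48.5 (rank 168), with 24.8 in replicate 1 (rank 195) and 24.4 in replicate 2 (rank 208). All 3 of these subunit genes ranked alike in both replicates. The cox-6B summit was 158 bp upstream of the second of its 2 annotated 5′ ends and inside an intron of the longer transcript. The same summit was 96 bp upstream of Y71H2AM.20, the nearest gene, and 808 bp upstream of nduc-2, a complex I gene, so it cannot be assigned to 1 of the 3.

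The remaining 2 complex IV subunits of the IDR list stood on 1 replicate each. For cox-6A the pooled signal was 34.2 (rank 393) and replicate 1 had 29.1 at that place (rank 125), while replicate 2 had no summit within 100 bp of it and its strongest in the window was 5.73 (rank 10206). The cox-6A summit lay 925 bp upstream of the gene, in the snRNA gene F54D8.7 and 99 bp from the 5′ end of that gene. For cox-4 the pooled signal was 29.2 (rank 574), close to the lowest of the list, with 5.88 in replicate 1 (rank 10866) and 19.8 in replicate 2 (rank 342). The cox-4 summit lay 457 bp upstream of the gene, in an intron of the pseudogene WBGene00012355 and 154 bp from the pseudogene's 5′ end. For both genes the nearest annotated 5′ end was thus that of a noncoding gene.

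Among the assembly factors, cox-14 had the highest pooled signal, 16.3, with 7.57 in replicate 1 and 7.11 in replicate 2, and its summit was nearer to rde-4, at 122 bp, than to cox-14. The gene cox-18, for a factor that inserts a subunit into the membrane, had 14.1 at 855 bp upstream. The heme O synthase gene cox-10 had 9.68 and the copper delivery gene cox-11 had 9.14. The values of cox-17 (a copper chaperone), cox-15 (heme A synthesis) and cox-16 were 6.98, 6.01 and 5.83, near the lowest of the whole pooled list, 5.53.

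Complex V was the only complex with a pooled summit at every gene, 9 of 9. Of all 43 genes 36 had one, and of all protein coding genes 45.5%, so with 9 genes this is not read as a trait of complex V. In the IDR list were 2 of the 9, where 2.50% of all protein coding genes were. The first was asb-2, a gene for subunit b that is used in the soma of C. elegans. It had 46.6 in the pooled list (rank 192), 25.2 in replicate 1 (rank 184) and 16.9 in replicate 2 (rank 495), at an intergenic summit 259 bp upstream on chromosome X that lies in no other gene's window. Its paralog asb-1, used in the germ line, had a pooled signal of 10.8 (rank 7797) and 11.1 in replicate 1 (rank 1753), and no summit in its window in replicate 2. The pooled signal of asb-2 was 4.30 times that of asb-1, and asb-2 ranked higher in replicate 1, while replicate 2 listed asb-2 alone.

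The second was atp-3, for the OSCP subunit at the top of the peripheral stalk, with 37.5 in the pooled list (rank 314), 26.6 in replicate 1 (rank 156) and 12.8 in replicate 2 (rank 1068). Its summit was 15 bp upstream of atp-3, 9 bp from the noncoding RNA gene F27C1.17 and 234 bp upstream of F27C1.2. The F1 genes atp-1 (alpha subunit) and atp-2 (beta subunit) came next and lay just under the IDR list, whose lowest signal is 28.9. The pooled signal of atp-1 was 26.9 (rank 699, 46 bp upstream), with 13.4 in replicate 1 and 11.1 in replicate 2, although the replicate 1 summit was more than 100 bp away. That of atp-2 was 24.8 (rank 870, 281 bp upstream), with 16.1 in replicate 1 (rank 621), and replicate 2 had only a summit of 4.20 elsewhere in the window. The atp-2 summit was nearer to the protein coding genes C34E10.10, at 252 bp, and C34E10.12, at 255 bp. With each peak assigned to the nearest gene of any biotype, atp-2 had 9.85. The subunit g genes asg-2 and asg-1 had 16.8 and 8.17, and the asg-1 summit was nearer to mrps-15. For atp-5 (subunit d) and atp-4 (coupling factor 6) the pooled values were 13.8 and 9.13. The atp-5 summit was nearer to the protein coding gene lmtr-3, at 42 bp, than to atp-5.

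In complex III and cytochrome c, the IDR list held the carrier cyc-2.1 and no subunit gene. With 7 subunit genes, none is near the 2.50% of all protein coding genes in that list and is not a result about them. The pooled signal of cyc-2.1 was 42.9 (rank 236), with 21.9 in replicate 1 (rank 271) and 11.5 in replicate 2 (rank 1478). The summit lay 224 bp downstream of its nearest 5′ end in an intron of cyc-2.1, the stretch printed above, and 956 bp upstream of tctn-1. The paralog cyc-2.2, also a cytochrome c gene, had no summit in its window in any of the 4 lists. A further peak, at rpl-20 with a pooled signal of 182.8, lay 1052 bp upstream of cyc-2.1, just beyond the window.

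Of the complex III subunits, ucr-2.2 and cyc-1 were the 2 genes nearest to the IDR list from below, both with 27.3 (ranks 669 and 670). The core protein gene ucr-2.2 had 13.6 in replicate 1 (rank 978) and 9.37 in replicate 2 (rank 2628), at a summit 195 bp upstream that no other gene's window held. The cytochrome c1 gene cyc-1 had 9.71 in replicate 1 (rank 2641) and 23.6 in replicate 2 (rank 221), at 318 bp upstream and again in no other window. It was the only one of the 43 genes outside the IDR list that was within the first 590 entries of a replicate. The other core protein genes differed: ucr-1 had 11.1 and ucr-2.1 had 7.82 at a summit nearer to nmat-1. The window of ucr-2.3 held no summit in any list. The small subunit gene ucr-11 had 12.1 in one of its introns, and isp-1, for the Rieske iron-sulphur protein, had 7.01.

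In complex II no gene of the 4 was in the IDR list. With 4 genes this is near the 2.50% of all protein coding genes in that list and is not a result about them. The strongest was sdhd-1, a membrane anchor gene, with 20.6 (rank 1329), 9.21 in replicate 1 (rank 3140) and 13.5 in replicate 2 (rank 917). Its summit was 215 bp upstream of sdhd-1 and 127 bp upstream of its neighbour ilkp-1. The flavoprotein gene sdha-1 had 19.5 (rank 1529), with 13.2 in replicate 1 and no match in replicate 2, at the 5′ end of the snoRNA gene D2021.6. Its paralog sdha-2 had 9.16 in its coding sequence, 491 bp downstream of its 5′ end and near the edge of the window. The iron-sulphur subunit gene sdhb-1 had no summit in its window in any list.

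In complex I none of the 6 nuo genes was in the IDR list or in the first 590 entries of a replicate, which with 6 genes is near the 2.50% of all protein coding genes in the IDR list and is not a result about them. The strongest was nuo-1, for the flavoprotein that binds NADH, with 16.2 (rank 2454), 8.77 in replicate 1 and 8.59 in replicate 2. Its summit lay 334 bp upstream of nuo-1 but 45 bp from the noncoding RNA gene C09H10.11 and 299 bp from the ribosomal protein gene rpl-36.A. The accessory subunit gene nuo-4 had 11.5, the iron-sulphur subunit gene nuo-5 had 10.5 and nuo-3, for another accessory subunit, had 9.01. The genes nuo-2 and nuo-6 had no pooled summit in their windows, and nuo-6 had a weak one of 5.61 in replicate 1 alone, 943 bp upstream.

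In all, 7 genes had no pooled summit in their windows: nuo-2, nuo-6, sdhb-1, cyc-2.2, ucr-2.3, cox-7C and cox-19. Of these, all but nuo-6 had none in the replicate lists either. The authors' lists stop at 30000 entries, so a missing summit means a signal too low for the list and not its absence.

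The replicates differed in which genes they placed high. A summit in the window was found for 33 of the 43 genes in replicate 1 and for 26 in replicate 2, with 22 in both, 11 in replicate 1 alone and 4 in replicate 2 alone. Within the first 590 entries of a replicate, as many as the IDR list holds, there were 7 of the 43 genes in replicate 1, where 2.29% of all protein coding genes were, and 6 in replicate 2, where 2.31% were. Of these, 4 genes were in both: cox-5A, cox-5B, cox-6B and asb-2. The genes atp-3, cyc-2.1 and cox-6A were there in replicate 1 only, and cox-4 and cyc-1 in replicate 2 only.

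The strongest pooled summit was matched within 100 bp in both replicate lists for 15 of the 36 genes (41.7%), where 22.8% of all protein coding genes with a summit had such a match. These shares were not compared at equal signal, and the median pooled signal was 15.2 for the 36 genes and 9.54 for all. Of the 36 summits, 25 were matched in replicate 1 and 20 in replicate 2, and 6 in neither. Of the 8 genes in the IDR list, 7 were matched in both, with shifts of at most 33 bp in replicate 1 and 80 bp in replicate 2, and cox-6A was the exception. Over the 15 genes matched in both, the replicate signals had a Spearman's rho of 0.557 and a Pearson's r of 0.589 on log2 values. This is a description across genes, which were matched because both lists held them and share the same 2 libraries.

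**Figure D2:**
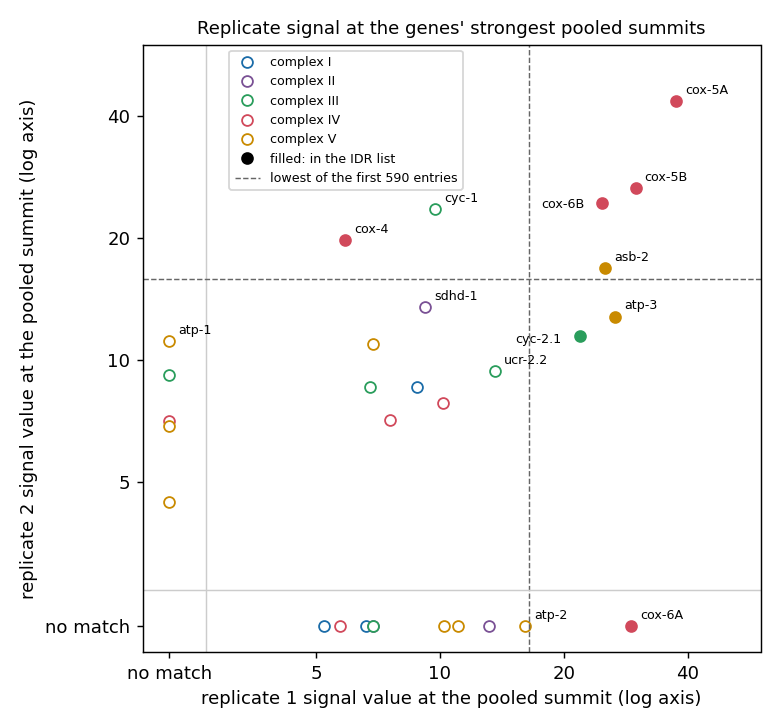
Each point is the strongest pooled summit of a gene, with the signal of the matching summit within 100 bp in replicate 1 on the horizontal and in replicate 2 on the vertical log axis; summits without a match lie in the margin of that replicate, and the 6 without a match in either are left out. The dashed lines are the lowest signals of the first 590 entries, 16.5 and 15.9, and 4 genes lie above both: cox-5A, cox-5B, cox-6B and asb-2.

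The summits lay mostly upstream of and close to the 5′ ends. Of the 36 strongest summits 29 (80.6%) were upstream, where 71.4% of those of all protein coding genes were, and 31 lay within 500 bp. In the band from 400 bp upstream to the 5′ end lay 23 (63.9%), where 38.8% of the summits of all protein coding genes with a pooled summit and 64.2% of those of protein coding genes in the IDR list lay. The median position relative to the 5′ end, negative being upstream, was -198.5 bp, beside -202 bp for all protein coding genes and -236 bp for those in the IDR list. By annotation 18 of the summits were intergenic, 7 in introns, 4 in coding sequence, 4 in noncoding exons and 3 in UTR exons, of which 1 was on the 5′ and 2 on the 3′ side. The annotation was not counted for the summits of all protein coding genes. The 4 summits farthest upstream were those of cox-17, cox-6A, cox-16 and cox-18, all of complex IV.

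Many of the summits could not be given to 1 gene alone. The strongest summit of 23 of the 36 genes also lay in the window of another gene, in 19 cases a protein coding one, and 13 lay in no other window. The gene's own 5′ end was the nearest of any biotype for 21 and the nearest protein coding one for 27. Of the 8 genes in the IDR list it was the nearest of any biotype for 4 and the nearest protein coding one for 7, cox-6B being the exception. These counts were not made for the summits of all protein coding genes, so they describe the 36 genes only. Most of the genes, 34 of 43, have 1 annotated 5′ end, beside 72.6% of all protein coding genes.

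At the window's edges, the summits just inside were those of atp-1 at 495 bp downstream (a second summit, signal 10.7) and sdha-2 at 491 bp downstream, and on the far side cox-17 at 954 bp and cox-6A at 925 bp upstream. Just outside were a summit of 7.37 at 1001 bp upstream of nuo-5, one of 5.66 at 515 bp downstream of atp-5, the rpl-20 peak near cyc-2.1, and one of 10.4 at 1063 bp upstream of nuo-6.

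**Figure D3:**
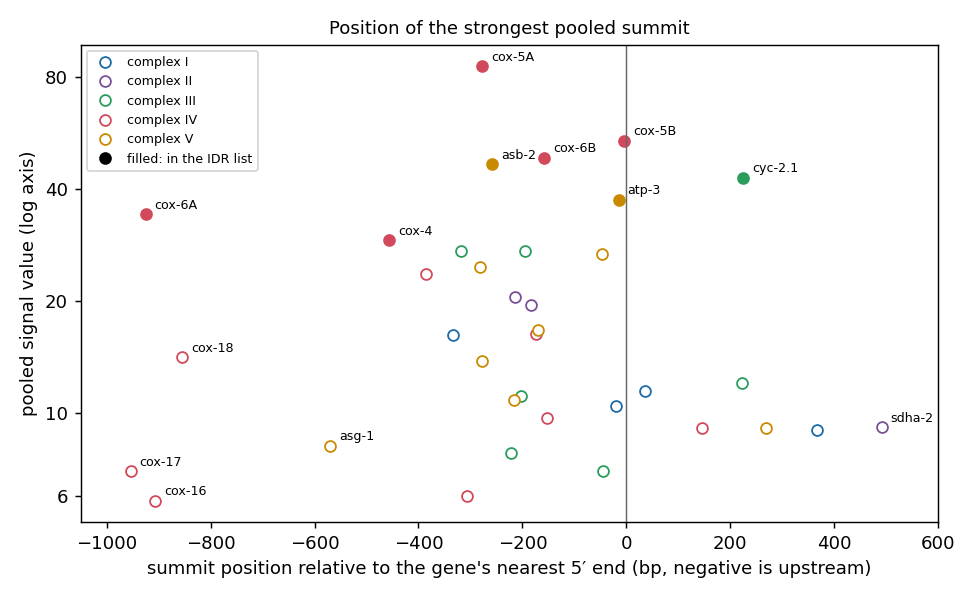
Each point is the strongest pooled summit of 1 of the 36 genes, by its position in bp relative to that gene's nearest annotated 5′ end (negative is upstream) and its pooled signal value on a log axis. Filled points are in the IDR list; 7 of these 8 lie upstream, cyc-2.1 lies 224 bp downstream, and 23 of the 36 points lie within 400 bp upstream.

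The other genes of the pathway, listed by symbol, were counted in the same way. Of 38 further genes of complexes I to V, 30 (78.9%) had a pooled summit and 8 (21.1%) were in the IDR list, beside 83.7% and 18.6% of the 43 and 45.5% and 2.50% of all protein coding genes. Of these, 29 were complex I genes outside the nuo symbols, and 6 of them were in the IDR list: ndub-8 (59.8), nduf-11 (50.03), nduc-2 (48.5, the peak shared with cox-6B), nduf-2.2 (47.7), nduf-9 (32.4) and ndua-8 (32.1). In complex II mev-1, for the cytochrome b large subunit, had 34.6 and was in the list, with 14.5 in replicate 1 and 21.4 in replicate 2. So was sco-1 of complex IV, with 22.8 in replicate 1 and 13.6 in replicate 2. None of the 2 further complex III genes or the 4 further complex V genes was in the list. With so few genes this is near the 2.50% of all protein coding genes and is not a result about them. A separate list of 13 carrier and quinone genes includes ADP/ATP carriers and enzymes of quinone synthesis. Of these 13 genes, 8 (61.5%) had a pooled summit and 1 (7.69%) was in the IDR list, beside the same 45.5% and 2.50%. That gene was the ADP/ATP carrier gene ant-1.1 with 31.6 at 13 bp upstream, and 1 gene is no result about the list.

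Among other gene families, pyruvate and TCA cycle genes had 15 of 20 with a pooled summit and 1 in the IDR list, dld-1 with 59.0. Mitochondrial ribosomal protein genes had 49 of 70 (70.0%) and 5 (7.14%), with a median signal of 9.98. Vacuolar ATPase genes, for a proton pump of other membranes, had 17 of 20 (85.0%) and 3 in the IDR list, and their signals had a median of 15.3. Cytosolic ribosomal protein genes had 78 of 81 (96.3%) and 31 (38.3%), with a median of 24.8. The 43 genes thus had a median signal and an IDR share between those of the 2 ribosomal families and near those of the vacuolar ATPase genes, and none of these differences was tested.

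**Figure D4:**
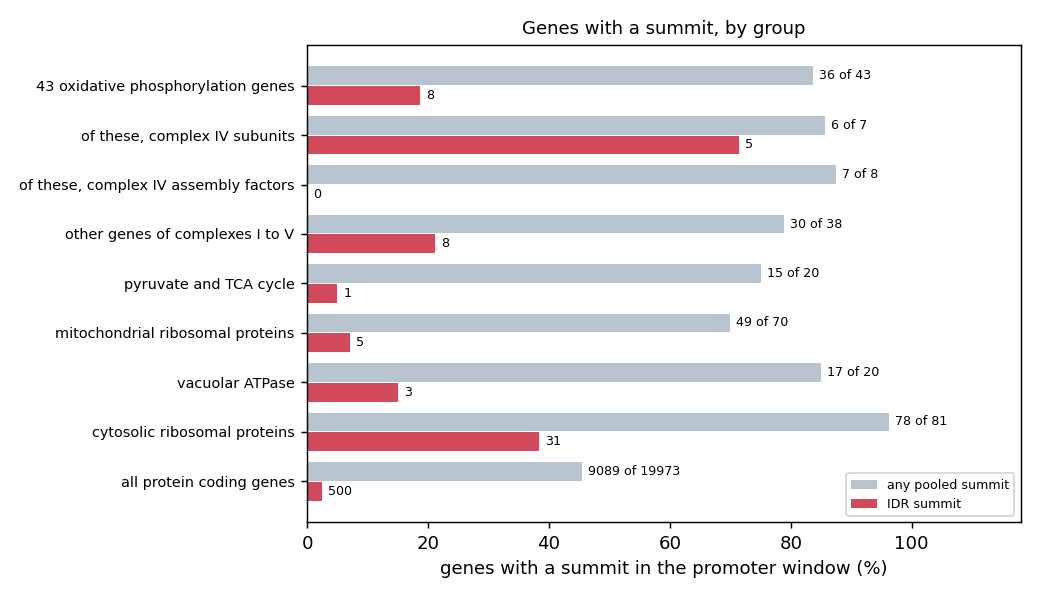
Bars give the percentage of each group's genes with any pooled summit (grey) and with a summit in the IDR list (red) in the promoter window, with the numbers of genes beside them. Complex IV subunits had 5 of 7 genes in the IDR list, cytosolic ribosomal protein genes 31 of 81 and all protein coding genes 500 of 19973.

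The 8 motifs were searched by their letters, on both strands and up to 100 bp from each summit, at the 36 genes, at the 590 IDR peaks and at 11296 pooled summits in windows of protein coding genes. The nuclear receptor half-site AGGTCA was found at 1 of the 36, asg-1 (2.78%), at 5.42% of the IDR peaks and at 5.14% of the pooled summits, and at none of the 8 genes in the IDR list. GAGAG was found at 17 of the 36 (47.2%), 4 of them in the IDR list, beside 51.0% and 29.7%. GATAA was found at 18 of the 36, beside 33.7% and 40.2%. At 7 of these 18 genes a match was part of TGATAA, which contains GATAA (19.4% of the 36, beside 12.9% and 19.7%). TTTTAAA was found at 12 (33.3%), beside 14.2% and 23.5%, and TTTCCC at 4 (11.1%), beside 15.8% and 16.7%. CACGTG and CCGGAAGT were found at none of the 36, beside 5.59% and 3.78% for CACGTG and 0.339% and 0.310% for CCGGAAGT. The median GC content of the windows was 38.3% at the 36 genes, 42.3% at the IDR peaks and 35.8% at the pooled summits. A match shows these letters only and not that any factor binds there.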

How the data were processed

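ChIP-seq peak lists were analysed from 2 biological replicates of 1 group. Per the labels and the deposited inventories of files, the authors called relaxed lists of peaks and background on each replicate and on both pooled, each against a control alignment, and derived from them a list filtered by irreproducible discovery rate (IDR). Which aligner and caller were used, and the IDR cut, is not given in the sources used here. Values used are the signal of each peak, the enrichment of ChIP over control as the authors' files give it, and the summit. Signal served to rank and describe peaks inside 1 list, and across lists only in a correlation of matched summits. Lists on ce11 were used, the ce10 lists were not used here, and the controls and read depth were not analysed here. By signal, the 590 IDR peaks were checked to be the head of the pooled list.

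Genes, 5′ ends and biotypes came from Ensembl release 115 on WBcel235, which is ce11. Summits from 1000 bp upstream to 500 bp downstream of any 5′ end were assigned to a gene, and 1 summit could serve several genes. Summits within 100 bp counted as matched. Bases were read from the RefSeq WBcel235 sequence, and motifs were searched within 100 bp. The assignment was tested on simulated data with planted summits. Tools were Python 3.11.15, pandas 2.3.3, numpy 2.4.6, scipy 1.17.1 and matplotlib 3.10.9. There is no second group, so no test was run.

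The genes, the lists, the motifs and the printed sequences were chosen with earlier results of these data known. The text names every gene in the IDR list, the strongest of each complex, genes in the first 590 entries of a replicate, genes without a pooled summit, those nearest the window's edges and, of other pathway genes, those in the IDR list. The remaining genes are described by value as well, which goes beyond that rule. Alternatives changed 1 choice at a time: the window, the assignment, the threshold, the matching distance, the motif window and the use of either replicate.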

Additional observations from a re-analysis of the deposited data

Results flagged for a closer look

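The list of replicate 2 held 24 entries on the mitochondrial chromosome, which carries the mitochondrially encoded subunits of the same complexes, and the lists of replicate 1 and of the pool held 0. Of the 24, 21 were among the first 590 entries, the highest at rank 2 with a signal of 166. They lie outside the nuclear genes described above. They count among the first 590 entries of replicate 2 wherever those are used above. The cause of the difference between the replicates was not tested.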

How the results depend on the processing

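The count of genes in the IDR list, 8, was 7 or 8 with windows of 500 bp on either side, 1000 bp upstream only or 2000 bp upstream, with the nearest protein coding gene, with any base of the peak in the window, with subunits only, and with the most 5′ end alone, an alternative chosen after seeing the data. It was 4 with the nearest gene of any biotype and 5 with its 295 strongest peaks alone. When a replicate was left out, the first 590 entries of the other replicate stood in for the IDR list. Without replicate 1 they held 6 genes, which were 5 of the 8 and cyc-1. Without replicate 2 they held 7, all of them among the 8. The genes cox-5A, cox-5B and asb-2 remained under each of the 11 alternatives. The median signal of 15.2 became 16.2 with the window of 500 bp, 16.3 with that of 2000 bp, 11.18 with the nearest gene of any biotype and 11.5 with missing genes set to the lowest signal. With the nearest gene of any biotype, 24 genes in place of 36 kept a pooled summit, so that median covers fewer genes. The share of all protein coding genes with a pooled summit was not computed for that assignment. The median position, negative being upstream, was -226.5 bp without replicate 1 and -199 bp without replicate 2, beside -198.5 bp. Genes matched in both replicates numbered 10 within 50 bp and 20 within 200 bp, against 15. Of 93 signals of single genes under other windows and assignments, 82 were the same and 11 changed, among them cyc-2.1 (182.8 with the window of 2000 bp, the rpl-20 peak) and cox-6A (7.43 with 500 bp). With 50 and 200 bp around the summit, motif windows chosen after seeing the data, GAGAG was found at 33.3% and 58.3% of the 36 genes, beside 34.9% and 63.6% of the IDR peaks and 17.7% and 48.1% of the pooled summits. GATAA was found at 9 genes (25.0%) and 28 (77.8%) against 18. The shares beside it were 15.9% and 56.4% of the IDR peaks and 22.3% and 63.4% of the pooled summits. In the same order, TGATAA was found at 3 (8.33%) and 11 (30.6%) against 7, beside 6.44% and 27.5%, and 10.3% and 34.7%. TTTCCC was found at 2 (5.56%) and 8 (22.2%) against 4, beside 7.29% and 29.7%, and 8.36% and 30.2%. TTTTAAA was found at 8 (22.2%) and 15 (41.7%) against 12, beside 5.76% and 34.1%, and 12.5% and 41.6%. With 200 bp AGGTCA was found at 2 genes against 1 and CACGTG at 1 against 0. No paired analysis was possible because the samples form 1 group.

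Single values rest on 2 replicates of a whole-animal preparation, and depth limits were not analysed here. The IDR list is the head of the pooled list, so its count and the pooled signal are not independent.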
